A study of Macaca mulatta with 34 samples.

Results

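Gene expression in the deep cerebellar nuclei (DCN) of rhesus macaques given the AAV vector intmiS1 was compared with that of macaques given empty AAV capsids. The comparison holds 6 of the 34 samples of the series, chosen by their titles: 3 libraries titled intmiS1 and 3 titled EmptyCapsid, all from Study 2. Each library came from a different animal by the animal numbers in the labels. Study 1 of the series addressed the toxicity seen with an earlier vector, AAV.miS1, and Study 2 the immune response to vectors with other cargo. The question here is which genes, and above all which immune and injury genes, differed between tissue that received the intmiS1 genome and tissue that received capsid alone.

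Both groups received an AAV capsid by MRI-guided injection into the deep nuclei, and neither was an untouched control. The intmiS1 group received a capsid holding a genome that encodes the artificial microRNA miS1. In 2 of its count tables the vector reference is named pKAAV_EF1a_hATXN1L_intron2_miS1, and in the third intronic_miS1_pKFB. Further macaques of the same study, 3 given StufferOnly and 3 given miSCA7Stuffer, entered the fit, and StufferOnly was also used as a second reference, being a vector genome group processed in the same study. The labels do not state dose, time after injection, age or strain. DDX3Y, a Y-linked gene, was read at 95.6 and 96.2 CPM, counts scaled to the size of the library, in EmptyCapsid replicates 1 and 3 and at 85.0 CPM in intmiS1 replicate 2. It was at or near 0 in the other 3 libraries, so the groups differed in their numbers of males.

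As background, miS1 was designed to lower ATXN1, whose expanded polyglutamine form causes spinocerebellar ataxia type 1. An artificial microRNA placed in an intron is cut out of a messenger precursor made by RNA polymerase II, processed by Drosha and Dicer and loaded on an Argonaute protein. The deep nuclei carry the output of the cerebellum: their projection neurons receive Purkinje cell axons and lie among heavily myelinated tracts. Tissue that reacts to a vector typically shows interferon-stimulated genes, antigen presentation, infiltrating lymphocytes, lipid-laden macrophages and DNA damage genes controlled by p53.

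The libraries were not counted alike. All 3 EmptyCapsid libraries and intmiS1 replicate 3 came as featureCounts tables with 28496977 to 39792653 counts in genes, while intmiS1 replicates 1 and 2 came as STAR tables with 5169866 and 4858179. File type and vector cannot be told apart in replicates 1 and 2, so many differences below are also given for replicate 3 alone. Where a gene is given only as a range over the intmiS1 libraries, replicate 3 is not shown apart, and file type may add to the size of the difference. Markers of the labelled tissue were present in all 6 libraries: SLC17A6, the glutamate transporter of projection neurons, at 88.3 to 182 CPM, SPP1 at 572 to 861 CPM and the heavy neurofilament NEFH at 517 to 956 CPM. The granule cell marker GABRA6 was at 0.301 to 5.66 CPM.

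No gene passed the test between intmiS1 and EmptyCapsid. The edgeR quasi-likelihood test, adjusted by Benjamini-Hochberg at 0.05, called 0 of 21501 genes (0.0%), with a lowest adjusted p of 0.537, while 1831 genes (8.52%) had an unadjusted p under 0.05. All 3 intmiS1 libraries lay above all 3 EmptyCapsid libraries in 2045 genes (9.51%) and below them in 2305 (10.7%). A stricter description, all 3 libraries at least 2-fold above the EmptyCapsid mean without overlap, held for 173 genes (0.805%), and the same below for 59 (0.274%). Among the 14664 genes with a mean of at least 1 log2 CPM these were 27 genes above, 23 of them with a symbol, and 8 below, 6 of them with a symbol.

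The count of calls depended on the tool and on the libraries that set the spread. With DESeq2 on the 6 libraries alone, a fit added after the data were seen, 74 of 19563 genes were higher (0.378%) and 40 lower (0.204%). In 103 of these 114, intmiS1 replicate 3 lay outside the EmptyCapsid range on the same side. Replicate 3 was itself in that fit, so this count is no separate check. Over all genes of the main fit, replicate 3 lay outside that range on the side of the change in 40.6%. With edgeR on the 6 libraries 1 gene passed, CDKN1A. Leaving out intmiS1 replicate 3, so that every intmiS1 library was a STAR table, gave 1852 calls, 288 higher and 1564 lower. Leaving out any other of the 6 libraries gave 0. Apart from the genes of smallest p on each side (CDKN1A, RPS13, RPL14 and ALK higher, RCHY1, IFIT5, MACC1 and SLC25A1 lower) and the targets ATXN1 and ATXN7, the genes named below were chosen after their values were seen.

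**Figure D1:**
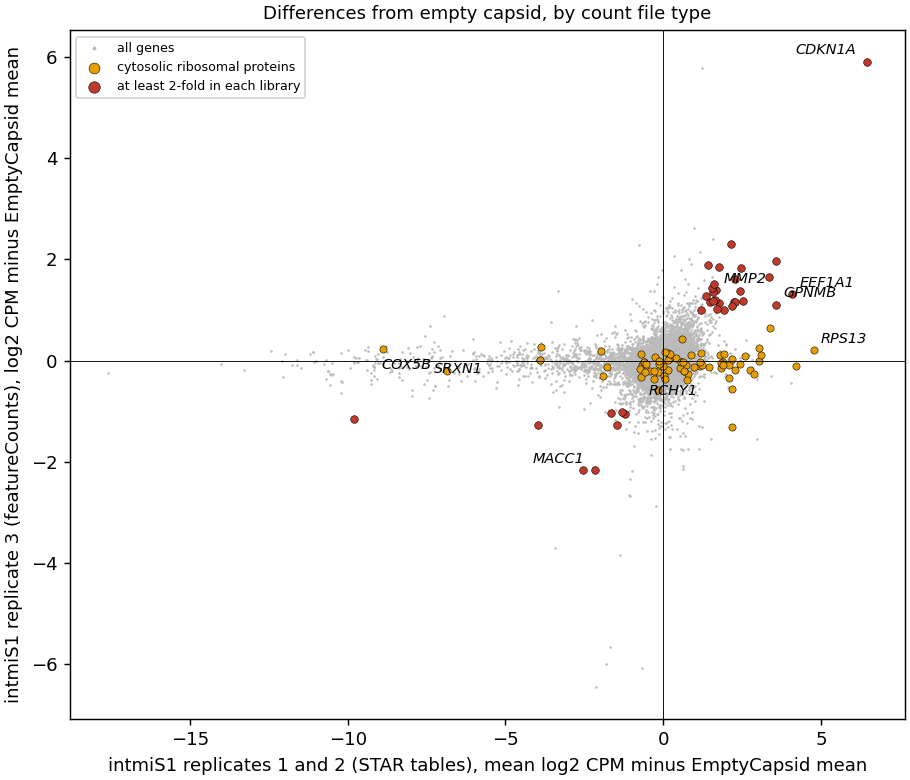
Each point is 1 of 14664 genes: the x axis gives the mean difference of intmiS1 replicates 1 and 2 from the EmptyCapsid mean and the y axis that of replicate 3, both in log2 CPM. Ribosomal protein genes (orange) spread along the x axis with replicate 3 near 0. The 35 genes at least 2-fold away in each library (red) lie off both axes by definition, CDKN1A highest among them on the y axis.

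The targets come first. ATXN1, the transcript miS1 was designed against, was read at 45.5, 53.9 and 57.6 CPM in EmptyCapsid and at 50.5, 28.5 and 44.3 CPM in intmiS1. The groups overlapped, replicate 2 being lowest, and the intmiS1 mean was 78.6% of the EmptyCapsid mean. The log2 fold change was -0.35 (SE 0.29, edgeR adjusted p = 0.722), and the two-sided exact permutation test over the 6 libraries gave p = 0.2, where 3 against 3 cannot go below 0.1. ATXN7, the gene named by the other RNA interference construct of the study and no target of miS1, was read at 32.9 to 36.7 CPM in EmptyCapsid and at 46.9, 49.0 and 31.6 CPM in intmiS1. Replicates 1 and 2 lay above the EmptyCapsid range and replicate 3 just below it (exact permutation p = 0.4).

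ATXN1L, a paralog that shares partners with ATXN1, was read at 72.2, 66.8 and 59.9 CPM in EmptyCapsid and at 81.2, 91.5 and 86.0 CPM in intmiS1. These groups did not overlap (exact permutation p = 0.1, the smallest this design allows; log2 fold change 0.38, SE 0.17, edgeR adjusted p = 0.576). Since the vector reference carries ATXN1L in its name, reads of the gene and of the vector cannot be told apart in this total, and StufferOnly libraries held 82.7 to 87.0 CPM. ATXN1 and ATXN1L act with the repressor capicua, whose targets include DUSP6, ETV4 and SPRY4. Of 11 genes tested for ATXN1 partners and capicua targets, 5 lay above EmptyCapsid in all 3 libraries and 0 below, against 9.51% and 10.7% of all genes. DUSP6, a phosphatase of ERK, was at 11.4 to 17.1 CPM in EmptyCapsid and at 24.4, 27.5 and 17.4 CPM in intmiS1. SPRY4, another brake on growth factor signalling, was at 17.4 to 19.8 CPM and at 29.2, 28.3 and 22.2 CPM. For ETV4, an ETS transcription factor, the values were 2.63 to 2.79 CPM and 8.01, 5.11 and 3.12 CPM. In all 3 genes replicate 3 lay closest to EmptyCapsid, and none passed edgeR (adjusted p = 0.576 for each). Against StufferOnly, SPRY4 was higher by 1.03 (SE 0.19, edgeR adjusted p = 0.0129, and 0.253 with featureCounts libraries alone).

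**Figure D2:**
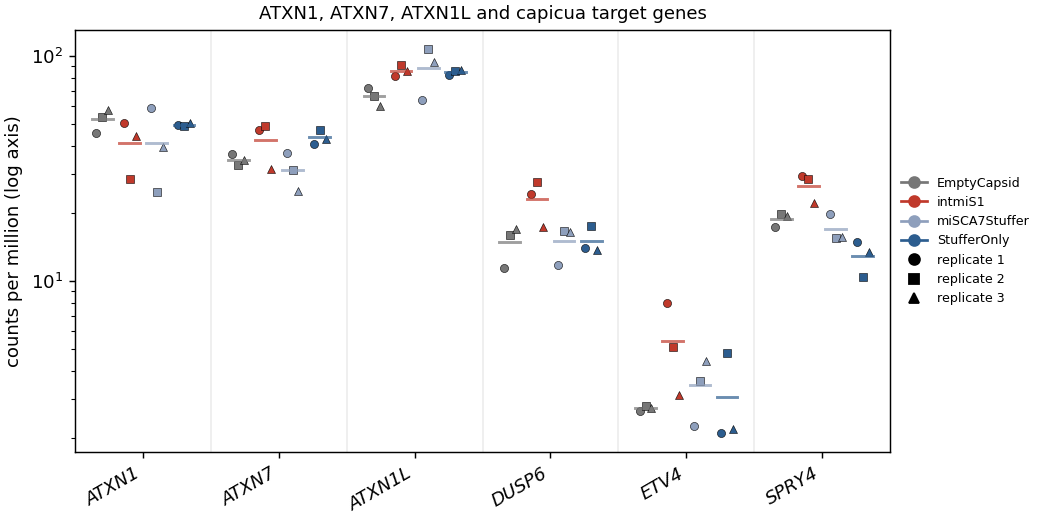
CPM on a log axis for ATXN1, ATXN7, ATXN1L and 3 capicua targets in 4 groups of 3 libraries; symbols mark the replicate and bars the group mean. ATXN1 overlaps between EmptyCapsid (45.5 to 57.6) and intmiS1 (28.5 to 50.5), and ATXN1L does not.

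The largest difference was in a p53 target. CDKN1A, which encodes the cell cycle inhibitor p21, was read at 1.30, 0.790 and 1.66 CPM in EmptyCapsid and at 88.3, 141 and 76.6 CPM in intmiS1. Every intmiS1 library, replicate 3 included, was far above every EmptyCapsid library, and the mean of 102 CPM (SD 34.2, n = 3) was 81.5 times that of 1.25 CPM (SD 0.437, n = 3). The log2 fold change was 6.33 (SE 1.18). Its edgeR adjusted p was 0.576 with all 12 libraries and 0.0122 with the 6 alone, and 7 of 22 alternatives called it, with adjusted p from 1.14e-93 to 1. The 2 other vector groups held CDKN1A as well: StufferOnly at 13.2 to 56.1 CPM, and miSCA7Stuffer at 2.99, 89.6 and 151 CPM. That low value, in miSCA7Stuffer replicate 1, enters the spread that all groups share, and without that library alone the edgeR adjusted p was 0.0115. Against StufferOnly the difference was 1.62 (SE 0.94, edgeR adjusted p = 0.275).

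Other genes that p53 switches on were higher by less. Of 20 tested genes of the p53 list, 6 lay above EmptyCapsid in all 3 libraries and 1 below, against 9.51% and 10.7% of all genes. The median log2 fold change was 0.24 against 0.01 over all genes, and 0 passed edgeR. Replicate 3 was above the EmptyCapsid range in 14 of the 20 and below it in 1, against 25.6% and 25.3% of all genes. TNFRSF10B, a death receptor for TRAIL, was at 2.22 to 3.02 CPM in EmptyCapsid and at 7.25, 9.44 and 7.71 CPM in intmiS1. BBC3, the pro-apoptotic BH3 protein PUMA, was at 0.715 to 0.860 CPM and at 1.72, 3.54 and 2.08 CPM. SESN2, a stress sensor that restrains mTORC1, was at 13.3 to 15.5 CPM and at 25.6, 26.4 and 21.2 CPM. In these 3 genes no intmiS1 library reached down to EmptyCapsid. Their log2 fold changes were 1.59 (SE 0.58), 1.58 (SE 0.56) and 0.74 (SE 0.17), each with an edgeR adjusted p of 0.576, and DESeq2 on the 6 libraries called CDKN1A, TNFRSF10B and SESN2.

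AEN and BTG2 were the other list members above EmptyCapsid throughout. BTG2, an antiproliferative gene, was at 43.1 to 48.3 CPM in EmptyCapsid and 53.9 to 79.9 CPM in intmiS1, and AEN, an apoptosis nuclease, at 4.29 to 6.67 and 6.86 to 11.2 CPM. TP53I3, an oxidoreductase gene induced by p53, lay the other way, at 7.72 to 9.38 CPM in EmptyCapsid and 5.11 to 7.17 CPM in intmiS1. MDM2, the ubiquitin ligase that p53 induces against itself, overlapped: 90.9 to 108 CPM in EmptyCapsid, 57.6 and 54.3 CPM in replicates 1 and 2 and 123 CPM in replicate 3. Outside the list, EDA2R, a TNF receptor family member, was at 0.332 to 1.09 CPM in EmptyCapsid and at 4.39, 9.44 and 3.96 CPM in intmiS1. PIDD1, which assembles the caspase-2 platform, was at 2.33 to 6.51 CPM and at 10.1, 17.9 and 8.31 CPM. RCHY1, a ubiquitin ligase that marks p53 for degradation, was lower in every library: 61.2, 56.4 and 60.5 CPM in EmptyCapsid and 36.4, 36.4 and 33.6 CPM in intmiS1. It had the smallest unadjusted p of all genes (2.5e-05), with a log2 fold change of -0.74 (SE 0.11, edgeR adjusted p = 0.537). DESeq2 called it in 3 fits, and over 22 alternatives its adjusted p ranged from 1.09e-08 to 1. Of the 3 fits, that on featureCounts libraries alone held replicate 3 as its sole intmiS1 library.

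**Figure D3:**
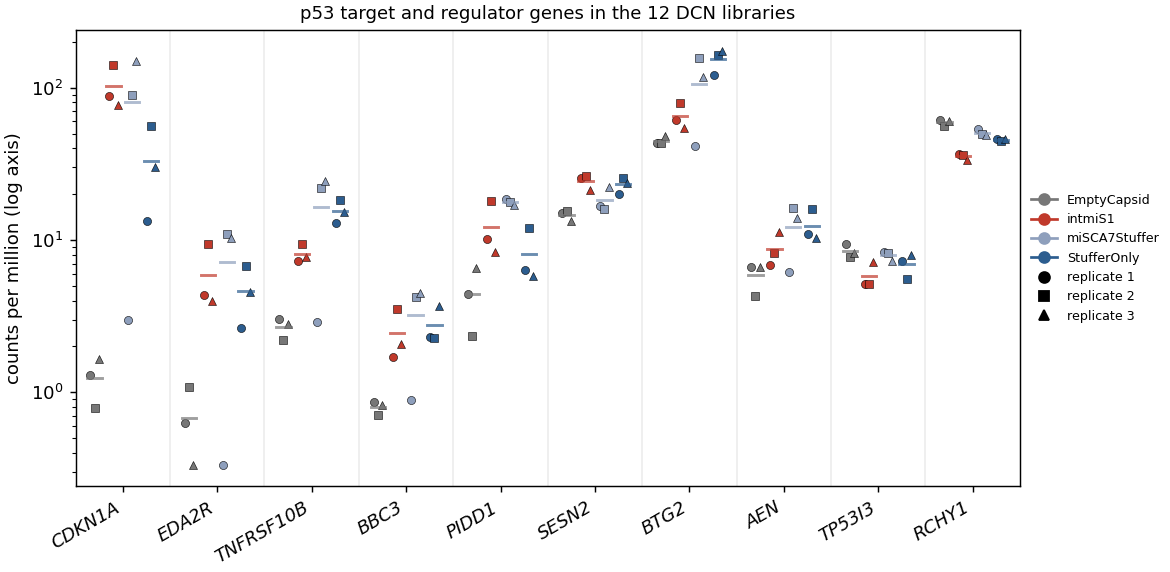
CPM on a log axis for 10 p53 target or regulator genes in the 12 libraries; symbols mark the replicate and bars the group mean. The intmiS1 libraries hold CDKN1A at 76.6 to 141 CPM against 0.790 to 1.66 in EmptyCapsid, and RCHY1 at 33.6 to 36.4 against 56.4 to 61.2.

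A few macrophage genes had higher values in every intmiS1 library, from a low base, and none passed edgeR. GPNMB, a glycoprotein of lipid-laden phagocytes, was at 6.49, 6.85 and 2.89 CPM in EmptyCapsid and at 36.2, 103 and 10.9 CPM in intmiS1. CHIT1, a chitinase secreted by activated macrophages, was at 0.730 to 1.51 CPM and at 11.6, 12.8 and 3.90 CPM. APOC1, an apolipoprotein, was at 1.32 to 3.60 CPM and at 13.7, 28.7 and 5.98 CPM. In all 3 genes replicate 3 was the lowest intmiS1 library, still above every EmptyCapsid library, and the edgeR adjusted p was 0.576 for GPNMB and APOC1 and 0.578 for CHIT1. CD163, the scavenger receptor for haemoglobin and haptoglobin, was at 2.03 to 4.61 CPM and at 8.58, 13.4 and 6.89 CPM. FABP5, a fatty acid carrier outside the macrophage list, was at 1.20 to 1.73 CPM and at 6.48, 10.2 and 3.15 CPM.

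As a whole the list of activated microglia and macrophage genes did not shift alike. Of 21 tested members, 7 lay above EmptyCapsid in all 3 libraries, 4 of these at least 2-fold in each, and 1 below, against 9.51% and 10.7% of all genes. The summed level was 2032 to 2237 CPM in EmptyCapsid and 1928 to 2245 CPM in intmiS1. Of 12 homeostatic microglia genes 0 lay wholly above and 0 wholly below. CX3CR1, the fractalkine receptor of microglia, was at 116 to 159 CPM and at 94.6 to 156 CPM. In bulk tissue a change in cell number and a change in RNA per cell cannot be told apart.

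The same macrophage genes were far higher after StufferOnly. GPNMB was at 3119 to 5443 CPM and CHIT1 at 583 to 3506 CPM in StufferOnly, none overlapping intmiS1. Against StufferOnly, GPNMB in intmiS1 was lower by 6.53 log2 units (fold change -6.53, SE 1.64, edgeR adjusted p = 0.0297) and CHIT1 by 7.81 (fold change -7.81, SE 1.83, adjusted p = 0.024). Over all genes edgeR called 1820 of 21501 lower in intmiS1 than in StufferOnly (8.46%) and 732 higher (3.4%). With featureCounts libraries alone, which leaves replicate 3 as the sole intmiS1 library and assumes that it varies like the other groups, it called 0 of 23447 (0.0%), 3469 of them with an unadjusted p under 0.05. The lower calls included 15 of the 21 macrophage genes, 16 of 21 lysosome genes, 14 of 20 complement genes, 11 of 13 MHC class I genes, 8 of 8 MHC class II genes and 17 of 38 interferon-stimulated genes. The higher calls included 10 of 18 oligodendrocyte and myelin genes, whose median was 0.75 above StufferOnly.

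Genes of the extracellular matrix were the list with the most members above EmptyCapsid. Of 24 tested members 13 lay above in all 3 libraries and 1 below, against 9.51% and 10.7% of all genes. The median log2 difference was 0.68, 0.67 and 0.50 in replicates 1 to 3, and 0 passed edgeR. DESeq2 on the 6 libraries, the fit added after the data were seen, called 7 of them higher, against 0.378% of all genes. MMP2, a gelatinase that cleaves basement membrane collagen, was at 25.2, 20.2 and 19.7 CPM in EmptyCapsid and at 54.0, 89.3 and 56.9 CPM in intmiS1 (log2 fold change 1.62, SE 0.67, edgeR adjusted p = 0.576). COL6A1, a chain of the microfibrillar collagen VI, was at 4.82 to 6.64 CPM and at 24.8, 17.7 and 11.0 CPM. COL6A3, its longest chain, was at 1.30 to 2.94 CPM and at 7.25, 4.72 and 4.97 CPM. COL1A1, the main chain of fibrillar collagen, was at 4.51 to 6.25 CPM and at 8.39, 10.2 and 21.3 CPM, so that here replicate 3 was highest. TIMP1, an inhibitor of matrix proteases, was at 11.6 to 12.3 CPM and at 18.9 to 25.6 CPM. SPARC, the most counted member, lay below EmptyCapsid in all 3 libraries, at 1681 to 2242 CPM against 2777 to 3464 CPM. The summed level of the list, most of it SPARC, therefore ran the other way, at 3256 to 4015 CPM in EmptyCapsid and 2453 to 3034 CPM in intmiS1.

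Cells that make collagen VI and collagen I in brain sit in vessel walls and meninges, and the markers of those cells were in part higher too. Of 10 meningeal and fibroblast genes, 4 lay above EmptyCapsid in all 3 libraries, among them 3 collagens that both lists hold, and the summed level was 1157 to 1459 CPM in EmptyCapsid and 1244 to 1473 CPM in intmiS1. LUM, a defining meningeal marker, was at 7.45 to 12 and 8.01 to 12.4 CPM. Endothelial genes lay wholly above in 4 of 14, against 9.51% of all genes, with a summed level of 412 to 571 and 537 to 692 CPM. Pericyte and smooth muscle genes did so in 3 of 11, with 322 to 353 and 344 to 466 CPM. Among the latter NOTCH3, a mural cell receptor, was at 46.2 to 52.9 CPM in EmptyCapsid and 67.7 to 88.5 CPM in intmiS1. It was higher than in StufferOnly by 1.01 (SE 0.17, edgeR adjusted p = 0.0111, and 0.245 with featureCounts libraries alone). The part of these cells in the matrix differences was not tested.

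Immediate early genes, transcribed within minutes of a stimulus, lay above EmptyCapsid in all 3 libraries in 9 of 17 and below in 0, against 9.51% and 10.7% of all genes. Their median log2 difference was 0.67, 0.83 and 0.39 in replicates 1 to 3. EGR1, a zinc finger transcription factor, was at 4.87, 2.71 and 9.06 CPM in EmptyCapsid and at 24.2, 24.2 and 11.1 CPM in intmiS1. EGR2 was at 0.886 to 2.02 CPM and at 5.34, 6.49 and 2.74 CPM, and EGR3 at 0.979 to 2.69 CPM and at 10.7, 4.52 and 3.18 CPM. FOS, a subunit of AP-1, was at 2.71 to 3.93 CPM and at 9.92, 9.44 and 6.54 CPM. Replicate 3 again lay closest to EmptyCapsid. The summed level of the list was 141 to 169 CPM in EmptyCapsid and 243, 230 and 168 CPM in intmiS1, so that in replicate 3 it did not leave the EmptyCapsid range.

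Of 23 chemokine and cytokine genes 9 lay wholly above EmptyCapsid and 0 below, against 9.51% and 10.7% of all genes, with median log2 differences of 0.39, 1.55 and 0.41. CCL2, which draws monocytes, was at 0.677 to 1.82 CPM and at 4.77, 4.13 and 4.69 CPM. IL1B was at 4.53 to 6.94 CPM and at 10.5, 13.6 and 10.4 CPM, and TNF at 0.226 to 1.06 CPM and at 4.20, 3.15 and 1.51 CPM. CCL2 and IL1B were nearly level across the 3 intmiS1 libraries. DESeq2 on the 6 libraries called both, and edgeR called 0 of the list.

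**Figure D4:**
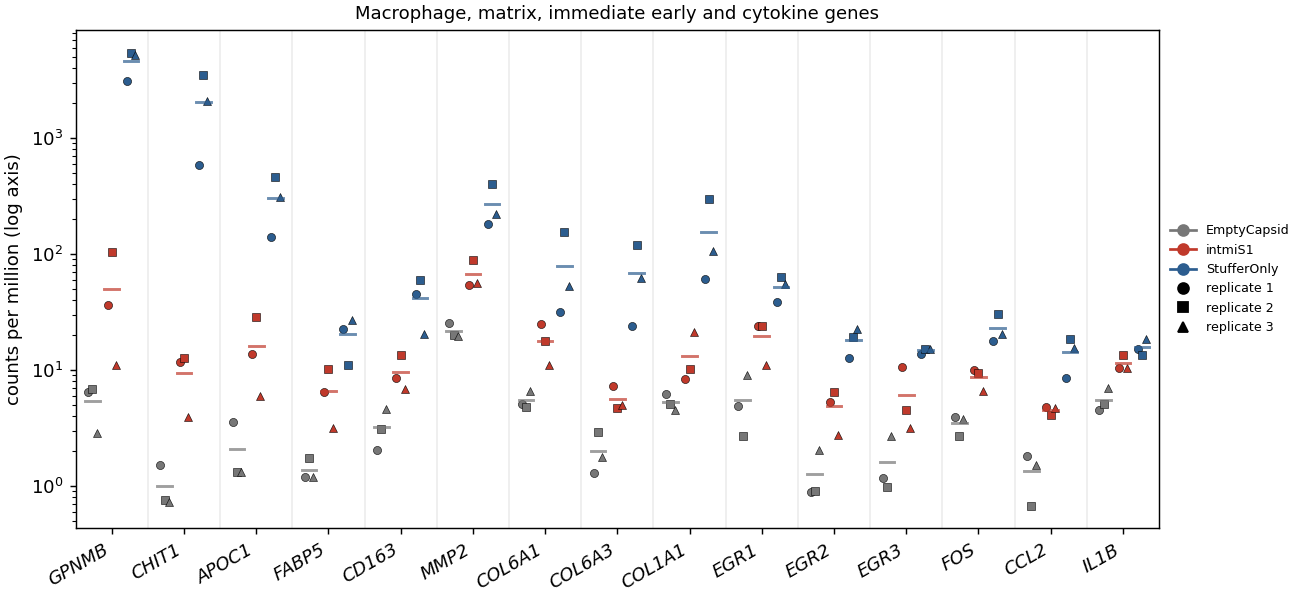
CPM on a log axis for 15 macrophage, matrix, immediate early and cytokine genes in EmptyCapsid, intmiS1 and StufferOnly, with symbols for the replicate and bars for the group mean. The genes were chosen after their values were seen. In each the 3 intmiS1 libraries lie above the 3 EmptyCapsid libraries, and GPNMB, CHIT1 and APOC1 lie far below StufferOnly.

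Interferon-stimulated genes showed no common direction. Of 38 tested, 4 lay wholly above EmptyCapsid and 5 wholly below, near the shares of 9.51% and 10.7% over all genes, with median log2 differences of 0.01, 0.08 and -0.01 in the 3 libraries and a summed level of 763 to 877 CPM in EmptyCapsid and 739 to 823 CPM in intmiS1. StufferOnly held 1503 to 2028 CPM of these genes. IFIT5, which binds foreign RNA ends, was lower in every intmiS1 library, at 49.6, 36.2 and 44.4 CPM in EmptyCapsid and 17.9, 18.5 and 25.5 CPM in intmiS1 (log2 fold change -1.06, SE 0.19, edgeR adjusted p = 0.576). IFIT1 was at 25.5 to 36.6 CPM and at 15.9 to 21.1 CPM. TRIM22, an antiviral ubiquitin ligase, lay the other way, at 33.9 to 41.6 CPM and 46.5 to 73.8 CPM, as did DDX60, a helicase, at 5.24 to 5.81 and 7.44 to 11.1 CPM.

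Antigen presentation and lymphocyte lists had their highest medians in replicate 2, but the summed T cell level was lowest there. The median log2 difference of 8 MHC class II genes was 0.06, 1.30 and 0.48 in replicates 1 to 3, and that of 23 T cell genes was -0.17, 1.81 and 0.41. CIITA, the master regulator of class II genes, was at 5.81 to 9.25 CPM in EmptyCapsid and at 9.34, 19.5 and 9.25 CPM in intmiS1, replicates 1 and 3 standing level with the highest EmptyCapsid library. The summed T cell list was at 20.4 to 78.4 CPM in EmptyCapsid and at 59.9, 53.1 and 68.5 CPM in intmiS1, with CD3D at 0 in intmiS1 replicates 1 and 3. Cytotoxic lymphocyte genes lay wholly above in 5 of 13, against 9.51% of all genes, at a summed 3.49 to 3.80 CPM in EmptyCapsid and 8.58, 16.3 and 6.89 CPM in intmiS1.

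B and plasma cell genes set replicate 2 apart. IGHM, the heavy chain of immunoglobulin M, was at 149 CPM there, at 0.191 and 0.126 CPM in intmiS1 replicates 1 and 3 and at 0.527 to 0.797 CPM in EmptyCapsid. JCHAIN, which joins secreted immunoglobulin, was at 27.3 CPM in replicate 2 and at 0.763 to 1.92 CPM in the other 5 libraries. Of 17 such genes 0 lay wholly above EmptyCapsid and 1 wholly below, against 9.51% and 10.7% of all genes.

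Among cell type lists with at least 3 genes tested, astrocyte genes had the lowest median. Of 16 tested, 0 lay wholly above EmptyCapsid and 5 wholly below, against 9.51% and 10.7% of all genes, with median log2 differences of -0.32, -0.60 and -0.25, and the summed level was 10710 to 11642 CPM in EmptyCapsid and 7636, 7033 and 9725 CPM in intmiS1. AQP4, the water channel of astrocyte endfeet, was at 2619, 2416 and 2635 CPM in EmptyCapsid and at 1133, 1270 and 1922 CPM in intmiS1 (log2 fold change -0.83, SE 0.37, edgeR adjusted p = 0.576). GJB6, the gap junction protein connexin 30, was at 108 to 120 CPM and at 86.6, 46.4 and 78.0 CPM, and FGFR3 at 197 to 232 CPM and at 170, 118 and 164 CPM. GFAP, the intermediate filament that reactive astrocytes raise, overlapped at 5979 to 6329 CPM and 4763 to 6509 CPM. SERPINA3, a protease inhibitor of reactive astrocytes, was at 46.4, 37.2 and 37.2 CPM in EmptyCapsid and at 61.8, 233 and 212 CPM in intmiS1, replicate 1 standing near EmptyCapsid. Reactive astrocyte genes lay wholly above in 6 of 19 and below in 0, against 9.51% and 10.7% of all genes, among them TNC, a matrix glycoprotein, at 44.8 to 74.5 and 92.5 to 99.8 CPM.

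Neurons and oligodendrocyte lineage genes were mixed. Of 18 oligodendrocyte and myelin genes 0 lay wholly above and 0 wholly below, of 19 projection neuron genes 1 and 1, of 24 Purkinje cell genes 0 and 2, and of 28 general neuronal genes 1 and 3. MBP, myelin basic protein, was at 14612 to 22825 CPM in EmptyCapsid and 20555 to 26274 CPM in intmiS1. LMO3, a transcription cofactor in the projection neuron list, was lower throughout, at 82.8 to 92.8 and 44.7 to 66.2 CPM. Granule cell genes lay wholly above in 3 of 19 and below in 0, against 9.51% and 10.7% of all genes, at a summed 750 to 843 and 851 to 902 CPM, among them the glutamate receptor GRM4 at 21.9 to 26.0 and 33.6 to 46.1 CPM. Purkinje genes had a log2 fold change below 0 in 17 of 24 and were summed at 2227 to 2436 CPM in EmptyCapsid and 1730 to 2188 CPM in intmiS1, without overlap. Of 15 inhibitory neuron genes 0 lay wholly above and 2 wholly below, and replicate 3 was below the EmptyCapsid range in 10 and above it in 1, against 25.3% and 25.6% of all genes. Of 10 oligodendrocyte precursor genes 0 lay wholly above and 3 wholly below, with summed levels of 1590 to 1752 and 1475 to 1490 CPM. The part of the piece of tissue taken in these values was not tested.

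**Figure D5:**
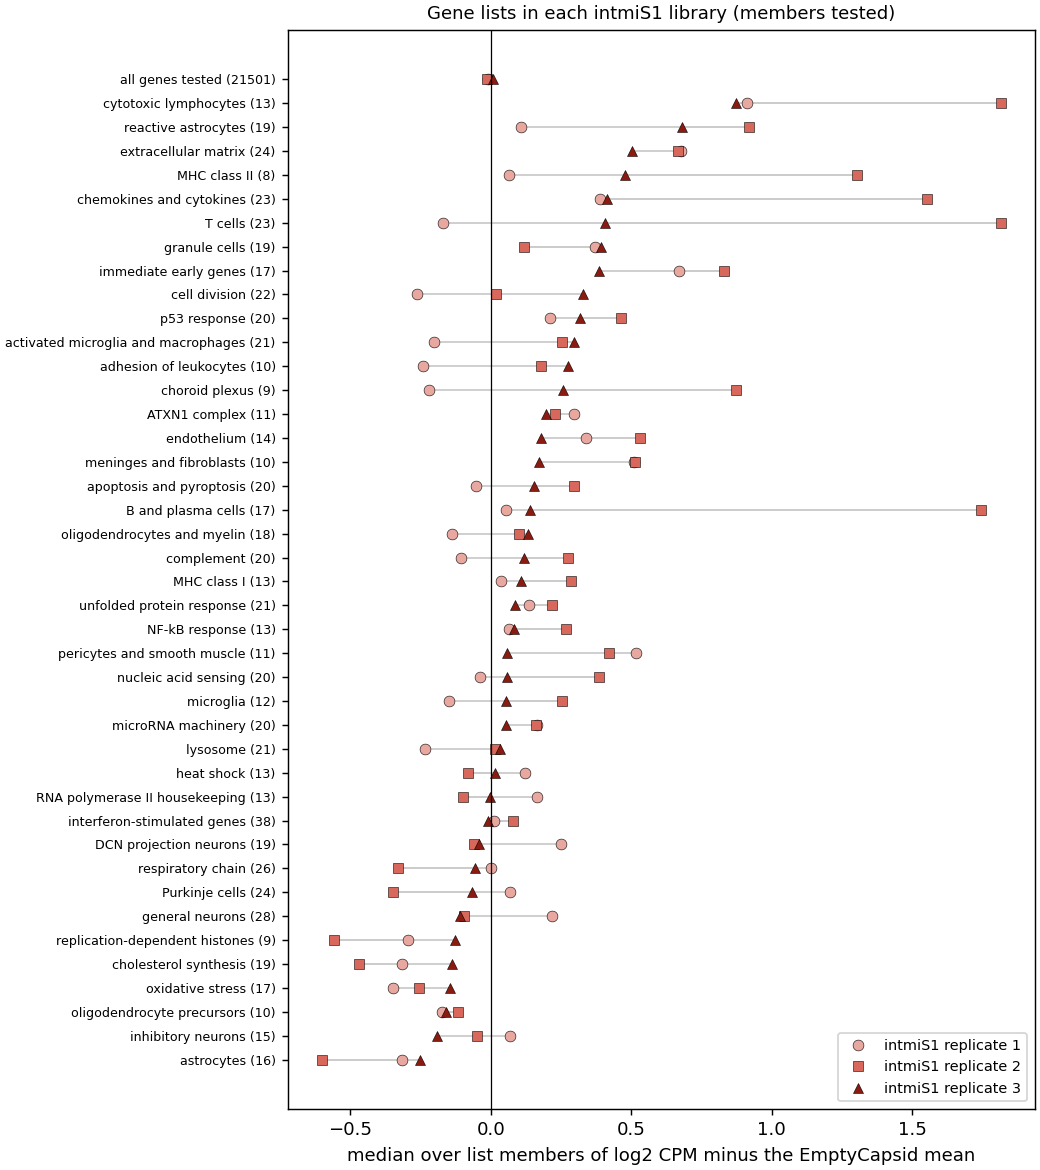
Each row is a gene list with the number of members tested, and each symbol is the median, over its members, of the log2 CPM difference between 1 intmiS1 library and the EmptyCapsid mean. Matrix and immediate early genes lie above 0 in all 3 libraries and astrocyte genes below; T cell, B cell and MHC class II lists are spread out by replicate 2 (squares), and all genes lie at 0.

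The remaining genes of smallest p and the remaining genes at least 2-fold away in each library have mixed roles. ALK, a receptor tyrosine kinase, was at 18.4, 16.6 and 20.8 CPM in EmptyCapsid and at 40.0, 64.9 and 26.5 CPM in intmiS1, and was higher than in StufferOnly by 1.75 (SE 0.27, edgeR adjusted p = 0.01, and 0.195 with featureCounts libraries alone). MACC1, a regulator of the MET receptor, was at 10.5, 11.0 and 8.70 CPM in EmptyCapsid and at 3.05, 1.57 and 2.17 CPM in intmiS1. CTSV, a lysosomal cysteine protease, was at 11.8, 25.2 and 10.3 CPM and at 1.91, 3.15 and 3.18 CPM. Both are among the genes at least 2-fold away in each library, so a lower level in replicate 3 is part of that definition. Both were called by DESeq2 on the 6 libraries but not by edgeR (adjusted p = 0.576 for each). SLC25A1, the mitochondrial citrate carrier, was at 49.0 to 53.8 CPM and 28.7 to 35.8 CPM. HTR2C, a serotonin receptor, was at 4.63 to 7.30 CPM and 1.72 to 2.36 CPM. Also lower were CTXN1, SOX3 and a locus of the multicopy U2 small nuclear RNA, whose reads could be shared among copies. That U2 locus was at 0 CPM in both STAR tables, where reads in several places were left out. It was at 31.0 CPM in replicate 3 and at 58.9 to 85.4 CPM in EmptyCapsid.

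Among the higher genes, CH25H, which makes the antiviral oxysterol 25-hydroxycholesterol, was at 0.640 to 2.22 CPM and at 5.91, 7.28 and 3.12 CPM. DSG2, a desmosomal cadherin, was at 0.979 to 1.15 CPM and at 4.96, 5.90 and 3.40 CPM. IL7R, the interleukin 7 receptor, was at 1.84 to 5.84 CPM and 7.67 to 8.77 CPM. The rest were GNA14, CATSPERG, EPS8L2, PODN and EEF1A1. EEF1A1, the translation elongation factor, was at 86.0, 26.0 and 26.4 CPM in EmptyCapsid and at 597, 741 and 96.8 CPM in intmiS1. The values of 597 and 741 CPM were those of the STAR tables. EEF1A1 was at 172, 53.7 and 179 CPM in miSCA7Stuffer and at 44.7 to 61.0 CPM in StufferOnly. The EF1a promoter named in the vector reference comes from this gene, so its reads and those of the vector cannot be told apart. The source of the difference was not tested.

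Some differences were seen in the STAR tables and hardly or not in replicate 3. More of the large ones were lower than higher, and genes of the ribosome were among the higher. RPS13, a protein of the small ribosomal subunit, was at 61.8 and 63.3 CPM in replicates 1 and 2, at 2.58 CPM in replicate 3 and at 1.63 to 2.75 CPM in EmptyCapsid. RPL14, of the large subunit, was at 76.8, 92.5 and 12.6 CPM in intmiS1 and 7.17 to 9.43 CPM in EmptyCapsid. Over 75 cytosolic ribosomal protein genes tested the median log2 difference was 0.52, 0.58 and -0.07 in replicates 1 to 3. Replicates 1 and 2 were at least 2-fold above all 10 featureCounts libraries in 40 of 14664 genes (0.273%), 16 of them ribosomal. They were at least 2-fold below all 10 in 680 (4.64%). Replicate 3 lay within the EmptyCapsid range in 19 of the 40 and 329 of the 680. Over all genes tested it did so in 10560 of 21501, a similar share, so these 2 counts do not set the genes apart. COX5B, of respiratory complex IV, had no read in replicates 1 and 2, and was at 35.9 CPM in replicate 3 and 41.6 to 47.3 CPM in EmptyCapsid. SRXN1, sulfiredoxin, was at 0.191, 0.197 and 37.2 CPM against 42.8 to 60.5 CPM. FDFT1, squalene synthase, was at 41.0, 51.3 and 258 CPM against 262 to 288 CPM.

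FDFT1 and SRXN1 belong to 2 lists with low medians. Of 19 cholesterol synthesis genes 0 lay wholly above EmptyCapsid and 6 wholly below, with median differences of -0.32, -0.47 and -0.14, and of 17 oxidative stress genes 0 and 6, with -0.35, -0.26 and -0.15. Over all genes 10.7% lay wholly below. In both lists replicate 3 was nearest to EmptyCapsid. PRDX6, a peroxiredoxin, was low in replicate 3 as well, at 277, 308 and 342 CPM in EmptyCapsid and 221, 202 and 216 CPM in intmiS1. Of 20 genes of the microRNA machinery 5 lay wholly above and 0 below, against 9.51% and 10.7% of all genes, with median differences of 0.17, 0.16 and 0.06. AGO2, the slicing Argonaute, was at 39.9 to 46.5 CPM and at 60.4, 58.0 and 50.9 CPM (log2 fold change 0.36, SE 0.19, edgeR adjusted p = 0.592).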

How the data were processed

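Total RNA libraries of the DCN were made with a directional NEBNext kit after FastSelect removal of ribosomal RNA, per the labels' protocols. Reads were aligned with STAR 2.6.0c, per the submitters' processing notes. The deposited values are read counts per gene: featureCounts tables for 10 libraries, with reads shared by overlapping genes counted in each per the file headers, and STAR tables for intmiS1 replicates 1 and 2. The sources used here do not give the strand setting of featureCounts, the genome build or the annotation. Therefore no coordinates or sequences are printed, and overlapping or antisense genes may be uncertain. The unstranded STAR column was used. In these 2 tables, reads that were unmapped, in no gene, ambiguous between genes or in several places (68.4% and 71.2%) were left out. Vector features were left out in all libraries.

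The 34847 gene identifiers were in all 12 files, 24009 with a symbol. CPM values use TMM factors. The test was edgeR 4.0.16 (filterByExpr, quasi-likelihood F test) on all 12 Study 2 DCN libraries, contrast intmiS1 minus EmptyCapsid, with Benjamini-Hochberg adjustment at 0.05. It was also run on simulated data with the same spread for all genes and no difference between file types. That simulation therefore cannot decide whether the calls made here hold. DESeq2 1.42.0 was an alternative. Log2 differences of single libraries use a prior count of 2. A gene lay wholly above or below where the 3 libraries of each group did not overlap. Named genes were ATXN1, ATXN7 and, as fewer than 4 passed on a side, the 4 smallest p on that side, among genes with symbols whose mean log2 CPM reached 1; up to 12 passing rises and falls and 3 passing members per list would have been added. Others are said to be chosen after their values were seen. The members and the 43 gene lists were chosen with earlier results of these data known. Replicates are different animals, but the intmiS1 replicates also differ in file type and depth. The p-values therefore measure spread between animals together with these differences.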

Additional observations from a re-analysis of the deposited data

Results flagged for a closer look

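Reads on 2 features outside the gene tests were above the EmptyCapsid level in all 3 intmiS1 libraries. Rep2, named for the AAV2 replication gene, was read at 101, 87.5 and 3.10 RPM (reads scaled to the library's counts in genes) in intmiS1 replicates 1, 2 and 3, and at no more than 0.0702 in EmptyCapsid. Cap1, named for the AAV1 capsid gene, was read at 79.1, 67.1 and 3.31, and at no more than 0.0503 in EmptyCapsid. The other vector groups held such reads too: Rep2 was at 11.3, 26.6 and 7.79 RPM in StufferOnly and at 0, 18.8 and 17.1 RPM in miSCA7Stuffer, all but the 0 above intmiS1 replicate 3. Cap1 was at 8.61, 16.7 and 6.92 RPM and at 0.0606, 17.8 and 14.0 RPM. The lower 95% exact Poisson limit in replicate 3 was 2.52 for Rep2 and 2.72 for Cap1, which covers counting error only. The vector construct itself was read at 568, 648 and 44.6 RPM, but on 2 different reference sequences, so replicates 1 and 2 cannot be set against replicate 3. The source of these reads was not tested.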

How the results depend on the processing

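The call of 0 genes held in edgeR under another normalization, other filters and the reverse STAR column. A file type term or featureCounts libraries alone leaves replicate 3 as the sole intmiS1 library in the contrast. Counts of calls from such fits therefore cannot decide whether the call of 0 holds. Passing genes, those checked in replicate 3 and passing list members numbered 52, 33 and 5 with DESeq2 on 12 libraries, 114, 103 and 29 with DESeq2 on 6, 5, 5 and 1 with DESeq2 on featureCounts libraries, and 1, 1 and 1 with edgeR on 6 libraries, without the miSCA7Stuffer group or without its replicate 1. Leaving out 1 library gave 0 to 1852 genes and 0 to 34 list members, the highest without intmiS1 replicate 3. Against StufferOnly, featureCounts libraries alone gave 0 calls in place of 2552. That fit holds 1 intmiS1 library. The cause was not tested for the others. The alternatives with DESeq2 on 6 or on featureCounts libraries, and those without miSCA7Stuffer libraries, were chosen after seeing the data.

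Some fold changes turned sign. With featureCounts libraries alone ATXN7 was -0.13, IGHM -2.41, MDM2 0.34, CX3CR1 0.19 and GFAP 0.093. With a file type term they were -0.14, -2.41, 0.33, 0.18 and 0.091, with DESeq2 on featureCounts libraries -0.14, -2.45, 0.33, 0.18 and 0.082, and also without miSCA7Stuffer replicate 1 -0.14, -2.43, 0.33, 0.18 and 0.083. With library totals alone CX3CR1 was 0.0033 and GFAP 0.0068. Leaving out 1 library gave LUM -0.11 to 0.23, CX3CR1 -0.25 to 0.091, GFAP -0.18 to 0.034, and IGHM -2.29 (without intmiS1 replicate 2) to 6.74. The forward STAR column holds only 875900 and 803562 counts, against 4591449 and 4322627 in the reverse column. The kit is directional, so this column holds the minority strand. It replaces the counts of intmiS1 replicates 1 and 2 alone, while the featureCounts libraries keep theirs. Fold changes with this column therefore set unlike counts against each other and do not measure how stable the differences are. With it ATXN7 was -1.44, RPL14 -0.10, ALK -0.055, SESN2 -0.70, BTG2 -1.17, AEN -0.020, TP53I3 2.09, GPNMB -0.32, MMP2 -0.088, COL6A1 -0.090, TIMP1 -0.13, EGR1 -0.15 and IL1B -0.10. TNC was -0.76, TRIM22 -1.16, DDX60 -0.13, DUSP6 -0.72, SPRY4 -1.01, ATXN1L -0.68, EEF1A1 -0.18, FDFT1 2.49, NOTCH3 -1.03, GRM4 -0.65, AGO2 -1.19, LUM -1.01 and MBP -1.52.

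Animals with the same replicate number did not deviate together (correlations -0.07, -0.15 and -0.03), so they share only a number. With the replicate number as a block 0 genes passed, 2120 with an unadjusted p under 0.05, and ATXN1 was at -0.40. The 5169866 and 4858179 counts of the STAR tables limit genes of low level most.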
